A study of Danio rerio with 20 samples.

Results

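The receptor channels described here are the subunit genes of the glutamate-gated and GABA-gated ion channels of zebrafish larvae. Members were taken by symbol: every gene model whose symbol begins with gria1 to gria4, grin1 to grin3, grik1 to grik5, or gabr followed by the letter of a channel subunit. The rule found 45 of the 38718 gene models. Of these, 24 encode glutamate receptor subunits (8 AMPA, 12 NMDA and 4 kainate) and 21 encode GABA receptor subunits (7 alpha, 4 beta, 5 gamma, delta, pi or zeta, and 5 rho). In all, 33 members averaged at least 1 FPKM over the 20 libraries and entered the tests, 16 of them glutamate and 17 GABA receptor genes. The other 12 lay below that mean and are given by level. FPKM corrects fragment counts for gene length and library depth, so levels of different genes can be set side by side.

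Groups of larvae received citalopram (10 or 1000 µg/L), ifosfamide (1 or 100 µg/L) or neither, the last being the ERM group. Citalopram is an antidepressant that blocks serotonin reuptake, and ifosfamide is an alkylating anticancer drug. The labels name no strain, age or exposure length. ERM is not spelled out in them, and its treatment label carries a concentration but no compound, so ERM was read as the group without either drug. Each group had 4 libraries out of 5 exposed beakers. Nothing beyond the beakers says how far the libraries were independent, so the p-values measure the spread between these libraries. The 4 comparisons with ERM share the same 4 ERM libraries, so likeness among them is not independent evidence. The RNA came from larvae with the tissue label giving no organ, and in such bulk samples fewer cells of a type and less RNA per cell cannot be told apart.

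Ionotropic glutamate receptors carry most fast excitation in the vertebrate brain. AMPA receptors open within moments of glutamate release, NMDA receptors pass calcium only when the membrane is already depolarised and a co-agonist is bound, and kainate receptors act on both sides of the synapse. GABA-A receptors are chloride channels that carry most fast inhibition. They usually combine alpha and beta subunits with a gamma or delta subunit, and rho subunits form channels known best from the retina.

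Recovered depth was 10699832 to 17311011 reads per library. Library C of citalopram 1000 µg/L stood apart: 25952 gene models were above 0 there, against 28913 to 30110 in the other 19 libraries. Genes of other tissues were abundant, as they are in whole larvae: summed over each list, skeletal muscle markers reached 16012 to 52552 FPKM per library and neuron markers 889.1 to 1292 FPKM. The 33 tested receptor genes together summed to 252 ± 53.1 FPKM in citalopram 10 µg/L larvae and 261 ± 80.2 FPKM in citalopram 1000 µg/L larvae, to 323 ± 20.4 FPKM in ifosfamide 1 µg/L larvae and 332 ± 75.0 FPKM in ifosfamide 100 µg/L larvae, and to 262 ± 32.3 FPKM in ERM larvae (SD, n = 4 each).

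NMDA receptor transcripts were the most abundant of the set, and nearly all of them came from the paired copies of the obligatory GluN1 subunit. grin1b (ENSDARG00000025728; GRCz11 chromosome 5, 29597645 to 29643930, minus strand) averaged 72.5 FPKM over all libraries and grin1a averaged 58.6 FPKM. In each library grin1b made up 39.9% to 53.3% of the summed NMDA subunit FPKM and grin1a 36.2% to 47.5%. The glutamate-binding GluN2 subunits, which set how long the channel stays open, were far lower. grin2bb averaged 4.84 FPKM, grin2aa 3.44 FPKM and grin2ca 2.70 FPKM (ENSDARG00000078149; chromosome 3, 19005187 to 19133003, minus strand). grin3a (ENSDARG00000075802; chromosome 10, 4279521 to 4316015, minus strand), whose product binds glycine and lowers calcium entry in mammals, averaged 1.85 FPKM.

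Among AMPA subunits, 3 genes held most of the signal in reads on the primary chromosomes. gria3a (ENSDARG00000032737; chromosome 5, 23353570 to 23429228, minus strand) averaged 24.3 FPKM and 37.0% of the AMPA total. gria2b, a copy of the subunit that limits calcium entry in mammals, averaged 19.9 FPKM and 30.6%. gria4a (ENSDARG00000037496; chromosome 15, 44499187 to 44810137, minus strand) averaged 11.8 FPKM and 18.3%. These shares moved between libraries, from 28.8% to 45.3% for gria3a and from 13.6% to 21.8% for gria4a. Kainate receptor genes were low: grik1b averaged 3.51 FPKM (ENSDARG00000040627; chromosome 15, 42599501 to 42679838, plus strand), and grik1a averaged 2.75 FPKM (ENSDARG00000069139; chromosome 10, 25402463 to 25570647, minus strand).

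**Figure D1:**
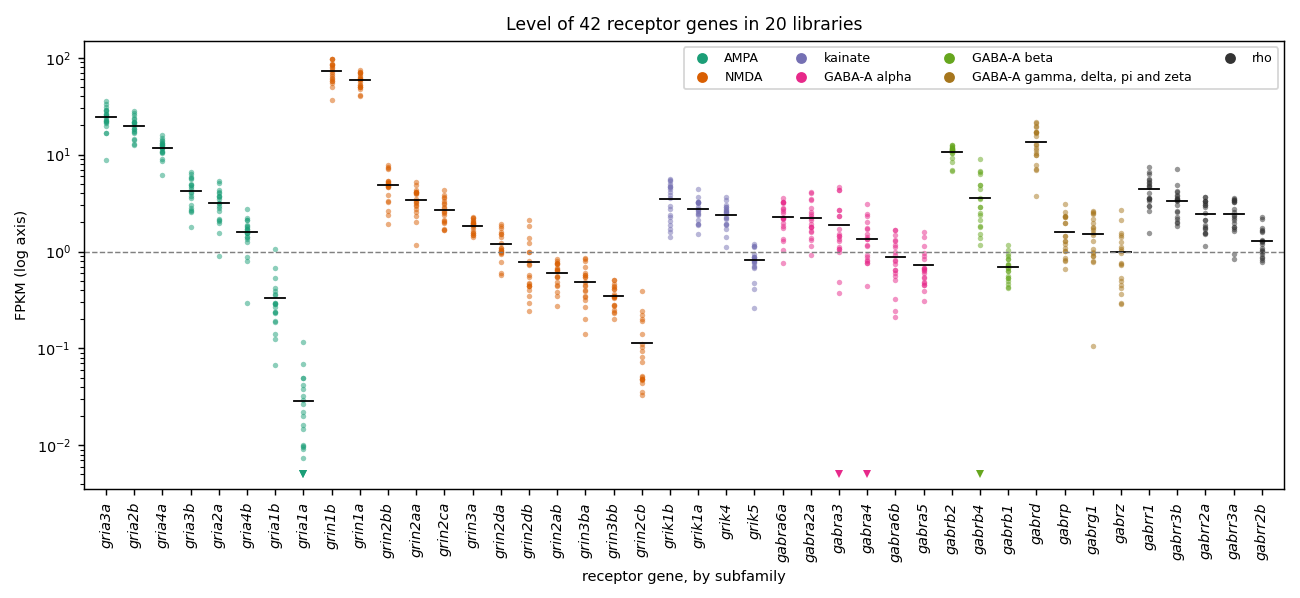
FPKM of 42 receptor genes on a log axis, grouped by subunit family; each point is a library, the black bar is the mean over the 20 libraries, triangles at the bottom are libraries at 0, and the dashed line marks 1 FPKM. The copies of grin1 lie highest, at means of 72.5 and 58.6 FPKM, and gria1a lies lowest, at 0.0285 FPKM.

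GABA receptor transcripts were highest for gabrd and gabrb2. gabrd (ENSDARG00000059763; chromosome 8, 53185079 to 53198154, minus strand) encodes the delta subunit, which in mammals carries tonic inhibition outside synapses, and averaged 13.5 FPKM. gabrb2 (ENSDARG00000079586; chromosome 14, 22172047 to 22273847, plus strand) averaged 10.7 FPKM. gabrd held 23.5% and gabrb2 20.8% of the summed FPKM of GABA-A subunits without rho. The SD of gabrb2 was 28.4% of its mean in citalopram 10 µg/L larvae and 17.1% in ERM larvae, and 5.27% to 7.51% in the other 3 groups.

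The less abundant GABA-A genes that the comparisons turn on were gabrb4, gabra6a and gabrp. gabrb4 (ENSDARG00000099096; chromosome 21, 37787805 to 37889727, minus strand), a beta subunit found in birds and fish, averaged 3.53 FPKM. gabra6a (ENSDARG00000075058; chromosome 14, 22152060 to 22168786, plus strand), whose mammalian counterpart belongs to cerebellar granule cells, averaged 2.29 FPKM. gabrp (ENSDARG00000020901; chromosome 14, 34547554 to 34557058, plus strand) encodes the pi subunit, known in mammals from organs other than the brain, and averaged 1.59 FPKM.

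All 5 rho genes passed 1 FPKM. gabrr1 (ENSDARG00000043902; chromosome 20, 1132092 to 1151265, minus strand) was the highest at 4.37 FPKM, or 31.3% of the rho total. gabrr3b averaged 3.35 FPKM, gabrr2a 2.45 FPKM and gabrr3a 2.44 FPKM (ENSDARG00000027153; chromosome 10, 35367722 to 35410518, minus strand). gabrr2b (ENSDARG00000014057; chromosome 20, 1158393 to 1176631, minus strand) was the lowest at 1.29 FPKM.

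The zebrafish genome holds many of these subunits as a/b copies from a whole-genome duplication. Both copies of 13 subunits were members. In the table the higher copy had 1.24 (grin1) to 23.9 (grin2c) times the level of the lower. Several of these ratios depended on reads counted on alternate contigs, which are described after the low members. With those reads added on the member's own length, the grin2c ratio was 1.60 in place of 23.9 and that of grin2a 1.17 in place of 5.78. That of gria4 was 2.36 in place of 7.43 and that of gria2 1.73 in place of 6.30. These ratios depend on the length used. With the added reads grin2cb averaged 1.68 FPKM, but the alternate model there averaged 0.850 FPKM on its own length. At grin2ab, which rose from 0.594 to 2.93 FPKM, the larger alternate model averaged 2.83 FPKM on its own length. For gria1 the order turned: gria1b had 11.6 times the level of gria1a in the table, and gria1a had 5.36 times that of gria1b with the added reads. gria3a had 5.74 times the level of gria3b, and 5.04 times with the added reads. The ratios for grin1, grik1 (1.27), gabrr3 (1.37), grin3b (1.40), grin2d (1.55), gabrr2 (1.90) and gabra6 (2.59) had no such reads to add. The members lay on 18 chromosomes. With a limit of 200000 bases between neighbours, 12 GABA receptor genes formed 5 clusters, in which the largest gap was 97338 bases. No glutamate receptor gene had another member within that limit. gabra6a and gabrb2 were 3260 bases apart on chromosome 14, and gabrr1 and gabrr2b 7127 bases apart on chromosome 20. gabra5 overlapped a gene on the opposite strand. The libraries were strand-specific per the labels, but whether reads were counted by strand is not given in the sources used here, so the share of reads given to gabra5 is uncertain.

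The 12 members below 1 FPKM were gria1a, grin2cb, gria1b, grin3bb, grin3ba, grin2ab, gabrb1, gabra5, grin2db, grik5, gabra6b and gabrz, with means of 0.0285 to 0.985 FPKM. Those nearest the limit were gabrz at 0.985, gabra6b at 0.885, grik5 at 0.810 and grin2db at 0.770 FPKM, while grin2da at 1.19, gabrr2b at 1.29, gabra4 at 1.33 and gabrg1 at 1.51 FPKM lay just above it. In tests without the limit none of the 12 passed: the smallest unadjusted p was that of gabrz, 0.0375 at ifosfamide 100 µg/L (log2 difference 0.57, adjusted p = 0.945) and 0.0438 at ifosfamide 1 µg/L (0.55, adjusted p = 0.832).

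At the place of several members, reads were also counted on other gene models. The table lists unnamed gene models, annotated as similar to receptor subunits, on alternate contigs of GRCz11 that repeat stretches of the chromosomes. A model was paired with a member if it lay on the same strand within 100000 bases, which gave 12 members. The larger model paired with grin2ab did not overlap it, with a gap of 3937 bases. Only 0.637% of the reads at gria1a were on the primary chromosome, and adding the others brought its mean to 4.44 FPKM on the member's own length. The primary share was 6.79% for grin2cb, 14.6% for gabra5, 20.3% for grin2ab, 28.0% for gria2a and 32.2% for gria4b. With the added reads, again on the member's own length, gria2a averaged 11.5 FPKM, gria4b 5.01 and gabra5 4.93 FPKM. On their own lengths the alternate models averaged 4.73 and 0.371 FPKM at gria2a, 2.09 at gria4b and 1.06 FPKM at gabra5. gria2b (99.6%) and gria3b (87.8%) were little affected. For these 12 genes the level in the table covers the primary chromosome alone, and the cause of the split was not tested. The rule also leaves out gene models spelled in capitals, of which GRIK2 averaged 4.81 FPKM, GRIK3 2.14, GABRA2 1.76 and a GABRB2 model 1.02 FPKM. Left out too were unnamed models paired with no member. Of these, a model similar to the GABA-A alpha3 subunit averaged 3.06 FPKM and a model similar to GRIK2 1.44 FPKM.

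**Figure D2:**
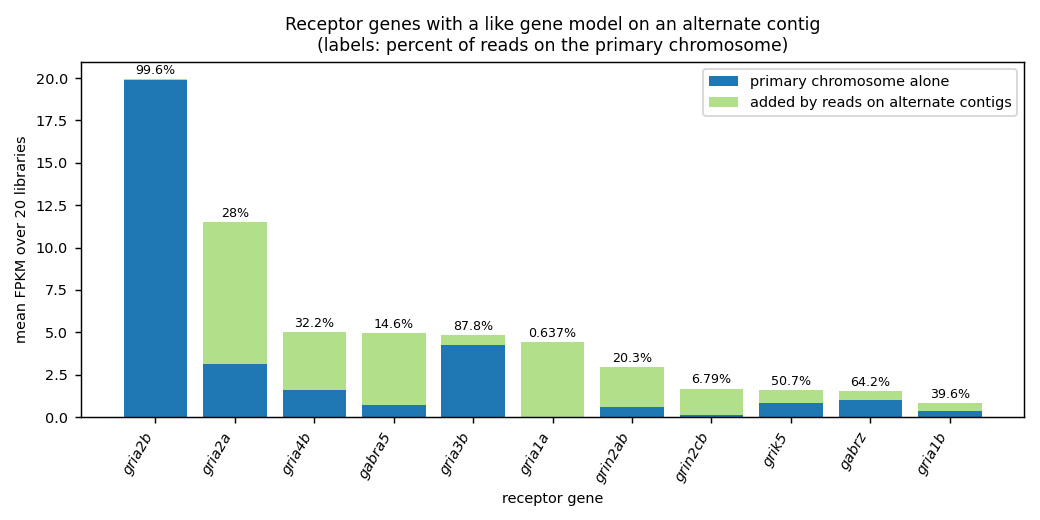
Mean FPKM of 11 members that have gene models at or near the same place on alternate contigs, over the 20 libraries. The stacked bars give the reads counted on the primary chromosome and those on alternate contigs, both on the member's own length. The primary part of gria1a is 0.637% of its reads and that of gria2b is 99.6%.

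No receptor gene passed the test in any comparison. Of the 33 tested members, 0 had an adjusted p under 0.05 in limma's moderated test on log2(FPKM + 1) at citalopram 10 µg/L (0.0101% of all 19723 tested gene models passed), citalopram 1000 µg/L (0.0304%), ifosfamide 1 µg/L (0%) or ifosfamide 100 µg/L (0%) against ERM. The same was true between citalopram doses (0%), between ifosfamide doses (0%) and in the F-test of any group against ERM (0%). At an unadjusted p under 0.05 there was 1 member at citalopram 10 µg/L (2.42% of all gene models), 1 at citalopram 1000 µg/L (7.27%) and 0 at ifosfamide 1 µg/L (4.8%), ifosfamide 100 µg/L (3.27%), between citalopram doses (3.67%) and between ifosfamide doses (0.852%). The values of no member were fully apart between the groups at citalopram 10 µg/L (2.51% of all gene models were), citalopram 1000 µg/L (3.68%), ifosfamide 100 µg/L (4.3%), between citalopram doses (1.28%) or between ifosfamide doses (1.17%). The F-test had 1 member under 0.05 (5.77% of gene models), gria3b, at an unadjusted value of 0.0489 and an adjusted p of 0.862.

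Weighting each library by its estimated spread changed these counts. With 1 set of weights fitted to all genes together, 5 of 33 members passed at citalopram 1000 µg/L, where 19.7% of all gene models passed: grin2ca (log2 difference 0.70), grik4 (0.34), gria3b (−0.47), gria2a (−0.42) and gabrr2b (−0.48). grin2ca then also passed between citalopram doses (0.48, adjusted p = 0.0434; 5.12% of all gene models), and 21 members passed the F-test (46.4% of all gene models). That estimate of the weights did not converge, and it ran from 0.128 for library C to 15.7 for library A of citalopram 1000 µg/L. With weights estimated gene by gene, a setting added after the data were seen, grin2ca passed at citalopram 1000 µg/L (0.69, adjusted p = 0.0487; 0.847% of all gene models). In that setting 3 of 33 members passed at ifosfamide 1 µg/L, a share close to the 10.3% of all gene models, among them gabrd (0.66) and gabrg1 (0.60). At ifosfamide 100 µg/L grin1b (0.53) and gabrd (0.76) passed, where 4.36% of all gene models did, and 3 members passed the F-test (10.9%).

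**Figure D3:**
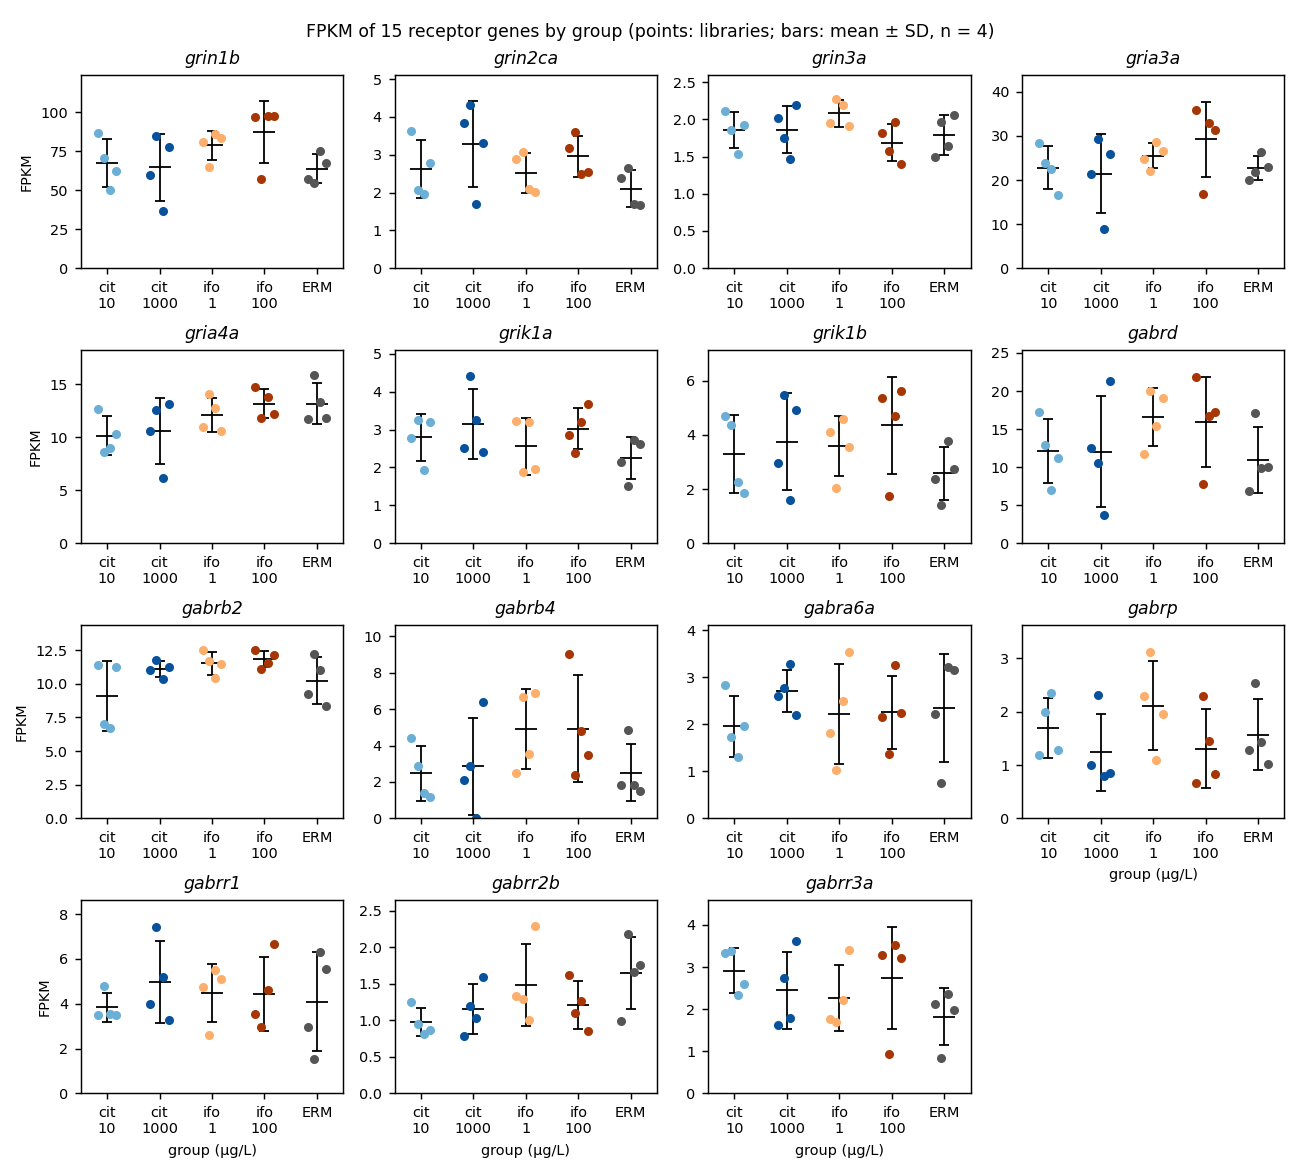
FPKM of 15 named receptor genes by group, with a point for each library and the mean ± SD of 4 libraries; groups run from citalopram 10 µg/L at the left to ERM at the right. Points of different groups overlap for nearly all genes: grin1b spans 57.4 to 97.9 FPKM at ifosfamide 100 µg/L and 54.9 to 75.0 FPKM in ERM.

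At citalopram 10 µg/L the receptor genes as a set lay close to ERM, with AMPA genes lower. No single gene passed the test, and families were not tested as sets. The median difference over the 33 members was −0.04 on the log2(FPKM + 1) scale, which understates changes of low genes, and the median of all tested gene models was −0.002. Of the members, 13 of 33 had a positive difference (49.6% of all gene models). All 6 AMPA members had a negative one, with a median of −0.30, and 1 of 6 was positive in the weighted settings. Kainate members had a median of 0.23 (2 of 3 positive), NMDA genes −0.06 (3 of 7), alpha −0.12 (1 of 5), beta −0.03 (1 of 3) and rho 0.04 (4 of 5). GRIK2 and GRIK3, kainate genes outside the rule, had lower means than in ERM, with overlapping groups. GRIK2 measured 4.80, 3.14, 2.30 and 4.41 FPKM, against 4.34, 6.52, 4.13 and 3.92 FPKM in ERM. GRIK3 measured 2.61, 1.96, 0.755 and 0.835 FPKM, against 0.871, 4.41, 1.08 and 1.53 FPKM in ERM. The count for the whole set depended on single libraries: it was 7 of 33 without library A, 20 without library C and 19 without ERM library B, with medians of −0.13, 0.07 and 0.05. The AMPA median was −0.17 without ERM library B.

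gabrr2b had the smallest unadjusted p of the set at this dose. It measured 1.25, 0.954, 0.817 and 0.873 FPKM in citalopram 10 µg/L larvae, against 0.985, 2.18, 1.67 and 1.76 FPKM in ERM larvae. Library A of each group overlapped the other group, and the remaining libraries were lower under citalopram. The difference was −0.41 (95% interval −0.78 to −0.04), with an unadjusted limma p of 0.0335 and an adjusted p of 1.00. gria4a measured 12.7, 8.62, 8.98 and 10.3 FPKM in citalopram 10 µg/L larvae and 11.7, 15.8, 13.3 and 11.8 FPKM in ERM larvae. In this gene too library A was the one that reached into the ERM range, and the difference of −0.35 (−0.73 to 0.04) had an adjusted p of 1.00. In the other direction, gabrr3a measured 3.34, 3.39, 2.33 and 2.59 FPKM against 2.12, 0.835, 2.35 and 1.99 FPKM in ERM larvae. ERM library B was far below the others and the groups overlapped, with library C of citalopram 10 µg/L just below library C of ERM. The difference of 0.50 (−0.06 to 1.05) had an adjusted p of 1.00. grik1a had 2.77, 3.25, 1.94 and 3.21 FPKM at citalopram 10 µg/L, against 2.14, 1.51, 2.71 and 2.61 FPKM in ERM, a difference of 0.23 (−0.17 to 0.63, adjusted p = 1.00) with overlapping groups.

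At citalopram 1000 µg/L the families, as taken by the rule, again went different ways. No single gene of them passed the test, and the families themselves were not tested. The median over the members was −0.02 (all gene models 0.000), and 15 of 33 were positive (50.1% of all gene models). AMPA genes had a median of −0.32 with 0 of 6 positive, while kainate genes had a median of 0.35 with 3 of 3 positive. The kainate genes outside the rule, GRIK2 and GRIK3, went the other way: both had lower means than in ERM, with overlapping groups. GRIK2 measured 4.14, 4.47, 3.202 and 5.51 FPKM and GRIK3 1.68, 1.24, 0.427 and 3.47 FPKM, against the ERM values given above. The contrast between AMPA and kainate genes therefore holds only for members taken by the rule. With the reads on alternate contigs added the AMPA median was −0.21 with 1 of 6 positive: gria4b stood at 0.01 in place of −0.32, and gria2a at −0.13 in place of −0.37. With gene-by-gene weights the AMPA median was −0.18, again with 1 of 6 positive. NMDA genes stood at 0.02 (4 of 7), and at −0.00 when libraries were scaled to total reads. Alpha genes stood at −0.06 (2 of 5), beta at 0.10 (2 of 3; −0.02 and 1 of 3 with the reads on alternate contigs added), the gamma, delta and pi genes at −0.06 (0 of 4) and rho at 0.16 (4 of 5). Library C decided much of this: without it 26 of 33 members were positive, with a median of 0.16, and the AMPA median was −0.10 with 1 of 6 positive. Without library D 10 of 33 were positive, and without ERM library B 22 were.

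grin2ca measured 3.85, 4.30, 1.69 and 3.31 FPKM in citalopram 1000 µg/L larvae, against 2.40, 2.64, 1.70 and 1.66 FPKM in ERM larvae. Libraries A, B and D lay above every ERM library and library C lay within them. The difference was 0.44 (0.01 to 0.86), with an unadjusted limma p of 0.0441 and an adjusted p of 0.671. grik1a measured 2.52, 4.41, 3.26 and 2.42 FPKM against 2.14, 1.51, 2.71 and 2.61 FPKM in ERM larvae, a difference of 0.35 (−0.05 to 0.75, adjusted p = 0.765). Library C was not low for this gene, and libraries A and D overlapped ERM. gria4a measured 10.6, 12.5, 6.19 and 13.1 FPKM at this dose, where only libraries A and C lay below all 4 ERM values given above. Its difference was −0.33 (−0.71 to 0.06, adjusted p = 0.788). gabrr2b measured 0.783, 1.199, 1.03 and 1.60 FPKM, inside the ERM range except for library A, and its difference was −0.29 (−0.66 to 0.08, adjusted p = 0.813). gabra3, gabra4 and gabrb4 were at 0 reads in library C, where 3 reads correspond to 0.413, 0.129 and 0.224 FPKM. The unnamed model similar to the alpha3 subunit, outside the rule, measured 0.596 FPKM in that library.

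At ifosfamide 1 µg/L most receptor genes averaged above ERM, by amounts too small to call. The test used the spread of libraries within all 5 groups. The median difference was 0.25 (all gene models −0.007), and 29 of 33 members were positive (48.9% of all gene models). Library medians of the 33 members overlapped: 0.08 to 0.26 at this dose and −0.21 to 0.26 in ERM. Members often moved together by library, as described below, so the 29 are not separate observations. All 7 NMDA genes (median 0.25), all 3 kainate genes (0.13), all 3 beta genes (0.20) and all 4 gamma, delta and pi genes (0.51) were positive, as were 4 of 5 alpha genes (0.38), 4 of 5 rho genes (0.22) and 4 of 6 AMPA genes (0.19). Leaving out any 1 library kept the median between 0.20 and 0.29 and 28 to 30 members positive. Scaling libraries to total reads shifted the median of all gene models to 0.13, and the receptor median to 0.38.

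gabrb4 measured 2.51, 6.69, 3.54 and 6.86 FPKM in ifosfamide 1 µg/L larvae, against 1.84, 4.83, 1.81 and 1.53 FPKM in ERM larvae, and ERM library B was the one among the ifosfamide values. Its difference was 0.76 (−0.26 to 1.77, adjusted p = 0.787). gabrd had 11.7, 19.96, 15.4 and 19.1 FPKM, against 6.93, 17.1, 9.91 and 9.99 FPKM in ERM, a difference of 0.59 (−0.22 to 1.40, adjusted p = 0.787) with the same overlap at ERM library B.

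The lower-lying members at ifosfamide 1 µg/L were gria4a and gabrr2b, both with overlapping groups. gria4a measured 10.9, 14.1, 12.8 and 10.6 FPKM, a difference of −0.11 (−0.50 to 0.27, adjusted p = 0.871). gabrr2b measured 1.33, 1.295, 1.00 and 2.29 FPKM, a difference of −0.10 (adjusted p = 0.879). Both turned slightly positive, to 0.05 and 0.0014, when libraries were scaled to total reads. A single member, gria2a, did not overlap between the groups (6.98% of all gene models did not). It measured 4.35, 5.15, 4.02 and 4.15 FPKM at ifosfamide 1 µg/L and 2.59, 2.96, 3.75 and 3.67 FPKM in ERM. Its difference was 0.36 (−0.18 to 0.90, adjusted p = 0.787), and 0.21 once the reads on alternate contigs were added. gria2a is named here because its values were seen, not by the rule for named genes.

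**Figure D4:**
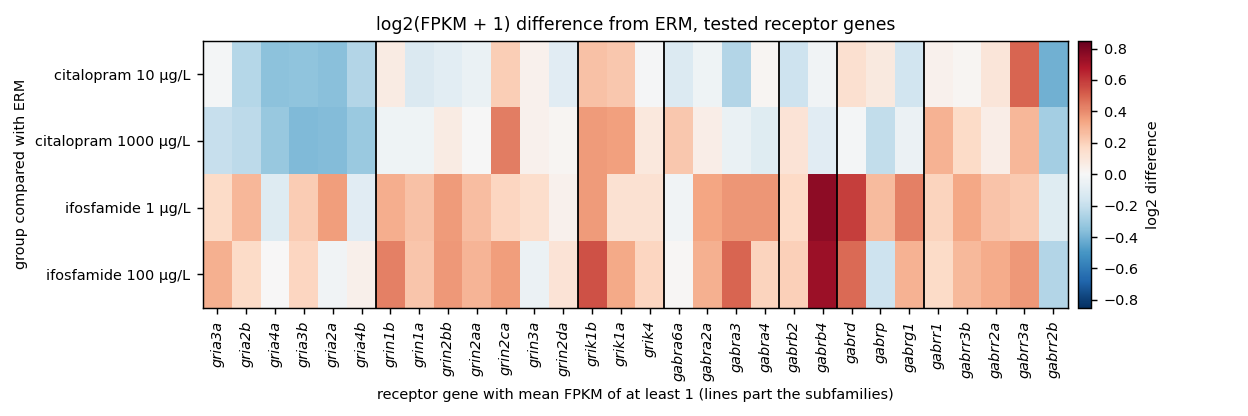
Differences of 30 tested receptor genes from ERM on the log2(FPKM + 1) scale, by subunit family, for citalopram 10 and 1000 µg/L and ifosfamide 1 and 100 µg/L. No cell passes an adjusted p of 0.05; the AMPA block is negative in both citalopram rows, with medians of −0.30 and −0.32, and most genes are positive in each ifosfamide row. Reads on alternate contigs are not included; with them gria4b, under citalopram 1000 µg/L, is at 0.01.

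At ifosfamide 100 µg/L most members were again above ERM in the mean. The median difference was 0.28 (all gene models −0.009) and 29 of 33 members were positive (48.4% of all gene models). Library medians of the 33 members ran from −0.25 to 0.36 at this dose, around the whole ERM range of −0.21 to 0.26. Family medians were 0.10 for AMPA (5 of 6 positive), 0.29 for NMDA (6 of 7), 0.32 for kainate (3 of 3), 0.30 for alpha (5 of 5), 0.22 for beta (3 of 3), 0.39 for gamma, delta and pi (3 of 4) and 0.28 for rho (4 of 5). The median was 0.40 without library B and 0.18 without library A. Scaled to total reads it was 0.38, with all gene models at 0.10. The AMPA median was the least steady, between 0.03 with the replicate block and 0.22 with scaling to total reads, and the beta median was 0.39 with the reads on alternate contigs added.

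grin1b measured 96.8, 57.4, 97.7 and 97.9 FPKM in ifosfamide 100 µg/L larvae, against 57.4, 54.9, 75.0 and 67.6 FPKM in ERM larvae. Libraries A, C and D lay above every ERM library and library B lay among them. The difference was 0.43 (−0.07 to 0.93), with an unadjusted limma p of 0.0879 and an adjusted p of 0.920. gria3a, the highest AMPA gene, had 35.9, 16.7, 33.0 and 31.3 FPKM against 19.9, 21.7, 26.3 and 23.0 FPKM in ERM, with library B below all of ERM and the other 3 above it. grin2ca measured 3.19, 3.60, 2.49 and 2.55 FPKM at this dose, a difference of 0.36 (−0.07 to 0.78, adjusted p = 0.920), and here library B was the highest. The members with the smallest p among the lower ones were gabrr2b, with 1.62, 1.099, 1.27 and 0.848 FPKM (difference −0.25, −0.63 to 0.12, adjusted p = 0.920), and gabrp. gabrp measured 0.657, 2.29, 1.46 and 0.823 FPKM, against 1.28, 2.53, 1.44 and 1.02 FPKM in ERM larvae (−0.17, −0.72 to 0.37, adjusted p = 0.920), and both groups spread over much of the same range.

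Between doses of a drug the median difference lay near 0. For citalopram 1000 µg/L minus 10 µg/L the median was 0.05 and 20 of 33 members were positive (50.2% of all gene models). gabrb2 measured 11.0, 11.7, 10.3 and 11.2 FPKM at 1000 µg/L, against 11.4, 6.98, 6.73 and 11.3 FPKM at 10 µg/L. The high dose was tight and the low dose fell into a higher and a lower pair, with a difference of 0.30 (−0.03 to 0.62, adjusted p = 1.00). gabra6a, its neighbour on chromosome 14, had 2.59, 2.78, 3.27 and 2.20 FPKM against 2.84, 1.73, 1.298 and 1.97 FPKM, a difference of 0.34 (−0.23 to 0.91, adjusted p = 1.00) with library A of the low dose among the high-dose values. gabrp averaged 1.24 ± 0.722 FPKM at 1000 µg/L and 1.70 ± 0.560 FPKM at 10 µg/L (SD, n = 4 each), and gabrr3a averaged 2.44 ± 0.922 and 2.91 ± 0.533 FPKM. Their differences were −0.29 (−0.84 to 0.25) and −0.21, both at an adjusted p of 1.00.

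For ifosfamide 100 µg/L minus 1 µg/L the median was 0.01 and 17 of 33 members were positive (50.2% of all gene models). gabrp had 0.657, 2.29, 1.46 and 0.823 FPKM at 100 µg/L and 2.29, 3.11, 1.09 and 1.96 FPKM at 1 µg/L, a difference of −0.44 (−0.99 to 0.10, adjusted p = 1.00) with overlapping groups. grin3a measured 1.82, 1.57, 1.96 and 1.40 FPKM against 1.95, 2.28, 2.19 and 1.91 FPKM. Only library C at 100 µg/L reached the low-dose range, and the difference was −0.20 (−0.46 to 0.06, adjusted p = 1.00). grik1a averaged 3.02 ± 0.549 FPKM at 100 µg/L and 2.56 ± 0.750 FPKM at 1 µg/L, and grin2ca averaged 2.96 ± 0.534 and 2.52 ± 0.540 FPKM (SD, n = 4 each). Their differences were 0.19 and 0.17, again at an adjusted p of 1.00.

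The genes that work with these receptors were taken from chosen lists. In none of the neuronal lists did any gene pass the test in the 4 comparisons with ERM. Of the 9 tested genes for GABA synthesis, release, uptake and breakdown, 9 were positive at ifosfamide 1 µg/L (median 0.40) and 9 at ifosfamide 100 µg/L (0.36). Of all gene models, 48.9% and 48.4% were positive in these comparisons. The highest of them, abat, which breaks GABA down, averaged 55.1 ± 8.40 FPKM at ifosfamide 1 µg/L and 42.8 ± 7.97 FPKM in ERM (SD, n = 4 each). Library medians of the whole list overlapped: −0.50 to 0.35 in ERM, 0.19 to 0.38 at ifosfamide 1 µg/L and −0.21 to 0.44 at ifosfamide 100 µg/L. The metabotropic GABA receptors, which signal through G proteins, had medians of 0.57 and 0.48 at the low and high ifosfamide dose (3 of 3 positive each), and the metabotropic glutamate receptors 0.20 and 0.32 (7 of 7 each). Library medians of the metabotropic GABA receptors overlapped: −0.53 to 0.58 in ERM, 0.20 to 0.75 at ifosfamide 1 µg/L and −0.55 to 1.26 at ifosfamide 100 µg/L. Those of the metabotropic glutamate receptors did too: −0.35 to 0.26 in ERM, −0.20 to 0.31 at ifosfamide 1 µg/L and 0.10 to 0.39 at ifosfamide 100 µg/L. The chloride cotransporters, which set the direction of the GABA response, had 0.77 and 0.60 (3 of 3 each). The highest of them, slc12a2, stood at only 0.17 and 0.04. Library medians of this list overlapped: −0.69 to 0.69 in ERM, 0.05 to 0.55 at ifosfamide 1 µg/L and −0.99 to 1.28 at ifosfamide 100 µg/L. AMPA and kainate auxiliary subunits, which control how receptors reach and stay at the synapse, had 0.19 (16 of 20) and 0.24 (17 of 20), and glutamatergic scaffolds 0.16 (16 of 19) and 0.20 (15 of 19). Delta glutamate receptors had 0.41 and 0.34 (2 of 2 each). For the auxiliary subunits, glutamatergic scaffolds and delta receptors, library medians at each ifosfamide dose also overlapped those of ERM. Genes for glutamate release and uptake stood at 0.07 (11 of 21) and −0.00 (10 of 21), glycine receptors at 0.03 and −0.01 (2 of 4 each), GABAergic and glycinergic scaffolds at 0.09 (6 of 8) and 0.14 (5 of 8). The glutamate release and uptake list also holds enzyme genes, such as glud1b, its highest gene at a mean of 493 FPKM.

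Under citalopram the medians of the same lists had both signs. Of all gene models, 49.6% were positive at 10 µg/L and 50.1% at 1000 µg/L. At 10 µg/L those of GABAergic and glycinergic scaffolds (−0.10, 0 of 8 positive), glycine receptors (−0.10, 0 of 4), metabotropic GABA receptors (−0.10, 1 of 3) and genes for glutamate release and uptake (−0.10, 5 of 21) were the lowest. GABA synthesis and uptake genes stood at −0.03 (4 of 9), glutamatergic scaffolds at −0.03 (7 of 19), auxiliary subunits at −0.02 (10 of 20), delta glutamate receptors at −0.00 (1 of 2), chloride cotransporters at 0.02 (2 of 3) and metabotropic glutamate receptors at 0.05 (6 of 7). At 1000 µg/L metabotropic GABA receptors stood at −0.06 (0 of 3), glutamatergic scaffolds at −0.03 (9 of 19), chloride cotransporters at −0.00 (1 of 3), genes for glutamate release and uptake at 0.03 (11 of 21) and glycine receptors at 0.05 (3 of 4). The others were positive: GABAergic and glycinergic scaffolds at 0.07 (5 of 8), GABA synthesis and uptake genes at 0.08 (6 of 9), delta glutamate receptors at 0.08 (2 of 2), auxiliary subunits at 0.12 (16 of 20) and metabotropic glutamate receptors at 0.12 (7 of 7).

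Markers of neurons and of other cell types were set beside the receptor genes, and their part in the receptor differences was not tested. No marker passed the test at either ifosfamide dose. Neuron markers had a median of 0.00 at ifosfamide 1 µg/L and 0.08 at ifosfamide 100 µg/L (12 of 23 positive each). Skeletal muscle markers had −0.47 and −0.35, with 19 and 20 of 20 negative, and liver markers −0.34 and −0.27, with 11 of 11 negative each. Epidermis markers stood at −0.35 and −0.40 (4 of 11 positive each), photoreceptor markers at 0.00 (8 of 16) and 0.06 (9 of 16), radial glia markers at −0.03 and −0.22 (3 of 11 each) and oligodendrocyte markers at −0.15 and −0.19 (2 of 9 each). Under citalopram 10 and 1000 µg/L, neuron markers had medians of −0.07 (5 of 23 positive) and 0.09 (15 of 23). Skeletal muscle markers stood at −0.05 (6 of 20) and −0.28 (1 of 20), and liver markers at −0.05 (4 of 11) and 0.08 (7 of 11). Epidermis markers had 0.09 and 0.03 (8 of 11 each), and photoreceptor markers 0.13 and 0.15 (12 of 16 each). Radial glia markers had −0.04 (4 of 11) and 0.10 (6 of 11), and oligodendrocyte markers −0.10 (2 of 9) and 0.04 (5 of 9). At citalopram 1000 µg/L, 2 genes of the muscle list passed. They were the fast myosin heavy chains myhz2, with 493 ± 37.5 FPKM against 1010 ± 76.7 FPKM in ERM (log2 difference −1.03, adjusted p = 0.0164 in limma), and myhz1.3, with 177 ± 31.9 against 420 ± 18.6 FPKM (−1.26, adjusted p = 0.0164). Both calls were lost with the replicate block (adjusted p = 0.219 and 0.152 in limma), in a fit of only the groups compared (0.509 and 0.345), without ERM library A (0.0789 and 0.0736) and without ERM library E (0.141 each).

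In 4 of the 5 groups many receptor genes were highest or lowest in the same library. In citalopram 10 µg/L, library A was highest in 26 of 33 members (26.7% of all gene models) and library C lowest in 22 (27.1%). In citalopram 1000 µg/L, library D was highest in 19 (28.9%) and library C lowest in 25 (39.1%). In ifosfamide 100 µg/L, library A was highest in 19 (30.2%) and library B lowest in 28 (34.3%). In ERM, library B was highest in 21 (30.9%) and also lowest in 9 (34.0%). In ifosfamide 1 µg/L no library stood out in 1 direction: library B was highest in 14 (31.8%) and lowest in 11 (27.5%). The median deviation of a library from the mean of all 20 ran from −0.66 in citalopram 1000 µg/L library C to 0.36 in ifosfamide 100 µg/L library A, and the SD within groups was 0.274.

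Medians of some other lists in these libraries were as follows. Chloride cotransporters stood at −1.16 in citalopram 1000 µg/L library C, 0.90 in its library D and 1.28 in ifosfamide 100 µg/L library A. Epidermis markers stood at 1.196 and liver markers at 0.96 in that library C. Oligodendrocyte markers stood at 0.62 there, radial glia markers at 0.60, photoreceptor markers at 0.56, skeletal muscle markers at 0.23 and neuron markers at −0.10. Skeletal muscle markers stood at −0.64 in library D. Neuron marker medians ran only from −0.32 to 0.18 over all libraries. The rho genes differed from the other GABA receptor genes in some libraries and went with them in others. ERM library B was lowest in 4 of 5 rho genes (34.0% of all gene models) and highest in 10 of 12 other GABA receptor genes (30.9%), with photoreceptor markers at −1.03. Library B of ifosfamide 1 µg/L was lowest in 4 of 5 rho genes and 2 of 12 others (27.5%), with photoreceptor markers at −0.94. Library C of citalopram 1000 µg/L was lowest in 1 of 5 rho genes and 9 of 12 others (39.1%). By contrast, library B of ifosfamide 100 µg/L was lowest in 4 of 5 rho genes and 11 of 12 others (34.3%), library C of citalopram 10 µg/L lowest in 4 of 5 and 7 of 12 (27.1%), and library D of citalopram 1000 µg/L highest in 3 of 5 and 8 of 12 (28.9%). Over all tested gene models, the slope of a library's deviation on log2 gene length also varied. It ran from −0.151 in citalopram 1000 µg/L library C to 0.0744 in its library D. The slope was −0.0879 in citalopram 10 µg/L library C and 0.0512 in ifosfamide 100 µg/L library A. Nearer 0 were citalopram 10 µg/L library A (0.00919), ifosfamide 100 µg/L library B (−0.00557) and ERM library B (0.0115). What sets these libraries apart, gene length included, was not tested.

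**Figure D5:**
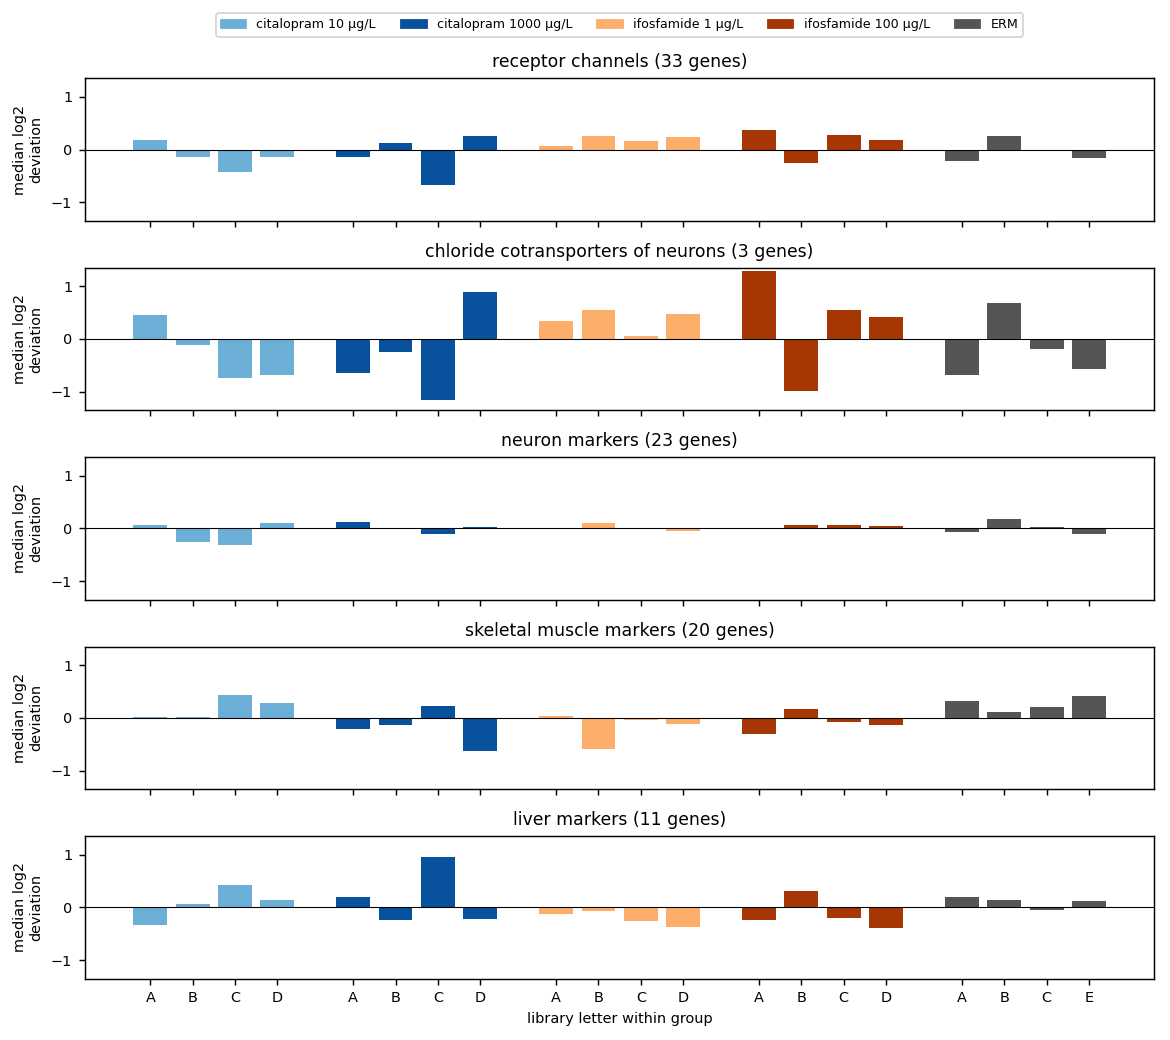
Median deviation in each library from the gene's mean over all 20 libraries, on the log2(FPKM + 1) scale, by group. Panels give the 33 tested receptor genes, the chloride cotransporters, and the neuron, skeletal muscle and liver markers. Receptor values run from −0.66 to 0.36, and the 4 libraries of ifosfamide 1 µg/L lie between 0.08 and 0.26. Chloride cotransporter values run from −1.16 to 1.28.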

How the data were processed

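Poly(A) RNA of zebrafish larvae was extracted with TRIzol and sequenced from strand-specific libraries, per the labels' protocols. Tools named without versions are fastp, HISAT2, featureCounts and DESeq2, and the build is GRCz11, per the submitters' processing notes. The authors deposited FPKM for 38718 gene models in 20 libraries. Multiplied by gene length, 100% of the values above 0 were whole reads within a tolerance of 0.01 of each library's smallest step. This gave depths of 10699832 to 17311011 reads, and the authors' scaling of libraries was that of median-of-ratios factors, so the values were compared as deposited.

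The model took log2(FPKM + 1) of the 19723 gene models of mean FPKM at least 1 in all 20 libraries, a term for each group and a trend of variance with level (limma 3.58.1, R 4.3.3; 15 residual degrees of freedom). P-values were adjusted by Benjamini-Hochberg over all of these, with a threshold of 0.05. Each gene's spread was estimated over all 5 groups, so intervals and p-values also carry the spread of groups outside a comparison. The 6 comparisons were each group against ERM and the doses of each drug. Groups were taken from the labels, and same-letter libraries were treated as unpaired. Their deviations correlated at −0.435 to 0.389, and only for ifosfamide 1 µg/L against ERM were all pairs above 0.1 (0.163, 0.389 and 0.113); no label says what a letter marks. That pattern was read from the data, and no pairing entered the main fit. With the replicate block and without it 0 receptor genes were called, so the block had no receptor call to remove. Among other genes it did change calls: those of myhz2 and myhz1.3 at citalopram 1000 µg/L were lost with it.

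The members and lists were chosen with earlier results of these data known. Named genes were, per comparison, the 2 members of smallest p in each direction, and the most abundant member of each family. Gene positions are those of the deposited table. Some members are counted in the totals and medians but are not reported here by name or shown by gene in the figures. The fit was run on simulated data in which genes varied independently and every library had the same spread. That run could not test the fit under the unequal library spreads seen here. Alternatives were another pseudocount, no filter, scaling to total reads, a replicate block, library weights, removal of a length trend, only the groups compared, reads on alternate contigs, limma's voom on the recovered reads, and leaving out each library; their effect is given in the closing section.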

Additional observations from a re-analysis of the deposited data

Results flagged for a closer look

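For the 16 named receptor genes, each group of 4 libraries was checked for a library far from the others, and 5 of 80 groups held one; chance gives about 1 in 20. grin1b was 57.4 FPKM in library B of ifosfamide 100 µg/L, where the other 3 libraries had 96.8 to 97.9. gabrr3a was 0.944 FPKM in the same library, where the others had 3.23 to 3.52. gabrp was 2.32 FPKM in library B of citalopram 1000 µg/L, against 0.793 to 1.00 in the others. gabrr1 was 4.82 FPKM in library B of citalopram 10 µg/L, against 3.50 to 3.56 in the others. gabrb4 was 4.83 FPKM in library B of ERM, against 1.53 to 1.84 in the others.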

How the results depend on the processing

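The median receptor difference moved by less than the SD of library medians within groups (0.274) under every alternative run, within −0.14 to 0.07 (citalopram 10 µg/L), −0.15 to 0.16 (citalopram 1000 µg/L), 0.20 to 0.38 (ifosfamide 1 µg/L), 0.18 to 0.40 (ifosfamide 100 µg/L), −0.11 to 0.23 (citalopram doses) and −0.08 to 0.13 (ifosfamide doses). The main medians, in that order, were −0.04, −0.02, 0.25, 0.28, 0.05 and 0.01, none much larger than that SD. Staying within it therefore could not show that a median was steady. The ranges for each citalopram dose against ERM and for both comparisons between doses crossed 0, while those for each ifosfamide dose against ERM did not. Of 432 values of named genes under alternatives, 425 kept their sign and stayed short of the threshold, 5 passed it (among them grin2ca 0.70 and gabrr2b −0.48 with library weights, and grin2ca 0.69 and grin1b 0.53 with gene-by-gene weights) and 2 turned sign (gria4a 0.052 and gabrr2b 0.0014 at ifosfamide 1 µg/L, scaled to total reads). Receptor genes called with library weights were 5 at citalopram 1000 µg/L, 1 between citalopram doses and 21 in the F-test; with gene-by-gene weights they were 1, 3 and 2 at citalopram 1000, ifosfamide 1 and ifosfamide 100 µg/L and 3 in the F-test. In every other setting run 0 receptor genes were called. Library weights called 5, 3879, 188 and 209 gene models for citalopram 10 and 1000 µg/L and ifosfamide 1 and 100 µg/L against ERM, 1009 between citalopram doses and 9153 in the F-test. Gene-by-gene weights called 6, 167, 2033 and 860 against ERM, 2 between ifosfamide doses and 2149 in the F-test. Against main counts of 2 and 6 for the citalopram doses, the replicate block gave 0 and 0. No filter and voom gave 0 for citalopram 10 µg/L, and for citalopram 1000 µg/L removing the length trend gave 3 and fitting only the groups compared gave 0. For ifosfamide 100 µg/L (0), no filter gave 1, total reads 2 and only the groups compared 1; no filter gave 2 between ifosfamide doses and 2 in the F-test. Leaving out 1 library gave 0 to 2 gene models for citalopram 10 µg/L, 0 to 40 for citalopram 1000 µg/L (40 without its library D), 0 to 5 for each ifosfamide dose and 0 to 25 in the F-test (25 without citalopram 1000 µg/L library D). The causes were not tested. A planned count test of another package was not run, since the deposited values are FPKM; voom took its place. Tested members had medians of 17 to 5960 reads per library, which limits the precision of the lowest.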
